A study of Mus musculus with 7 samples.

Results

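The 10 genes described here encode the core of the Bcl2 family, the proteins that decide at the outer mitochondrial membrane whether a cell starts apoptosis. They were taken by symbol from the 47729 genes of the count table, and all 10 were found and passed the filter on low counts (at least 10 counts in at least 3 libraries), which 19684 genes passed. The genes are ordered here by their 3 roles. The BH3-only sensors *Bcl2l11* (Bim), *Bbc3* (Puma), *Pmaip1* (Noxa), *Bid* and *Bad* carry death signals, the guardians *Bcl2*, *Bcl2l1* (Bcl-xL) and *Mcl1* hold the other proteins in check, and the effectors *Bax* and *Bak1* form the pore through which cytochrome c escapes.

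RNA came from forebrain taken at postnatal day 15 (P15) from *Lhx6*+/- (control, 4 libraries) and *Lhx6*-/- (mutant, 3 libraries) mice on an F1 background of C57BL/6 and 129Sv. *Lhx6* encodes a LIM homeodomain transcription factor of cortical interneurons (CIs) born in the medial ganglionic eminence (MGE), and its allele in these mice, Lhx6tm2Vpa, is a germline null, so that every cell of the animal carried it. The controls were heterozygous, and no wild-type library was compared. Each library pooled RNA of 2 animals, so that spreads and p-values refer to pools.

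In the developing brain, newly made neurons are produced in excess and many are removed by apoptosis during the first postnatal weeks, CIs among them, in a process that needs Bax. BH3-only proteins start it by occupying the groove of the guardians or by switching on Bax and Bak1 directly. Their genes are controlled largely at the level of transcription: forkhead (FOXO) factors and the JNK pathway are known to raise *Bcl2l11*, and p53 to raise *Bbc3*, *Pmaip1* and *Bax*. Bid and Bad are known above all for control after translation, by cleavage and by phosphorylation, which RNA does not show.

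*Bcl2l11* was the 1 member that passed edgeR's adjusted test with genotype alone in the model. Its mean normalized count was 425 ± 59.5 (SD, n = 4) in control and 855 ± 126 (n = 3) in mutant forebrain, 2.01-fold higher in the mutants. *Bid* and *Pmaip1*, which are BH3-only genes too, were 1.29-fold and 1.60-fold higher with no overlap between genotypes, but did not pass the adjusted test. The guardians and effectors differed between genotypes by at most 0.22 on the log2 scale, and none of these 5 differences passed the test. Over the family, 1 of 10 members was called higher by edgeR's quasi-likelihood test (threshold of 0.05 on Benjamini-Hochberg adjusted p), beside 2.97% of the 19684 tested genes (585 genes). The test called 0 members lower, beside 1.87% of tested genes (369) and 4.85% (954) called in either direction. The 3 members with an unadjusted p below 0.05 were all higher in mutants, beside 18.2% of tested genes at such a p in either direction, as were the 2 called by DESeq2 and the 1 called by limma-voom. The median log2 fold change was 0.08 over the 10 members and -0.01 over all tested genes, and 6 members had a positive value.

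Libraries summed to between 32556183 and 38068931 expected counts. The targeted gene matched the labels: *Lhx6* had between 476 and 615 normalized counts in the controls and between 70.1 and 76.6 in the mutants (log2 fold change -2.88, SE 0.135, adjusted p = 5.99e-05 from edgeR). The columns of the table carry library numbers (2, 3, 10 and 11 for control, 5, 12 and 13 for mutant), and the first principal component of the libraries, with 39.6% of the variance, set libraries 2, 3 and 5 apart from libraries 10 to 13 in both genotypes. What the numbers stand for is not given in the sources used here, so member values are given below for each library, always in the order 2, 3, 10, 11 for controls and 5, 12, 13 for mutants, and the 2 runs of numbers are compared where they matter.

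**Figure D1:**
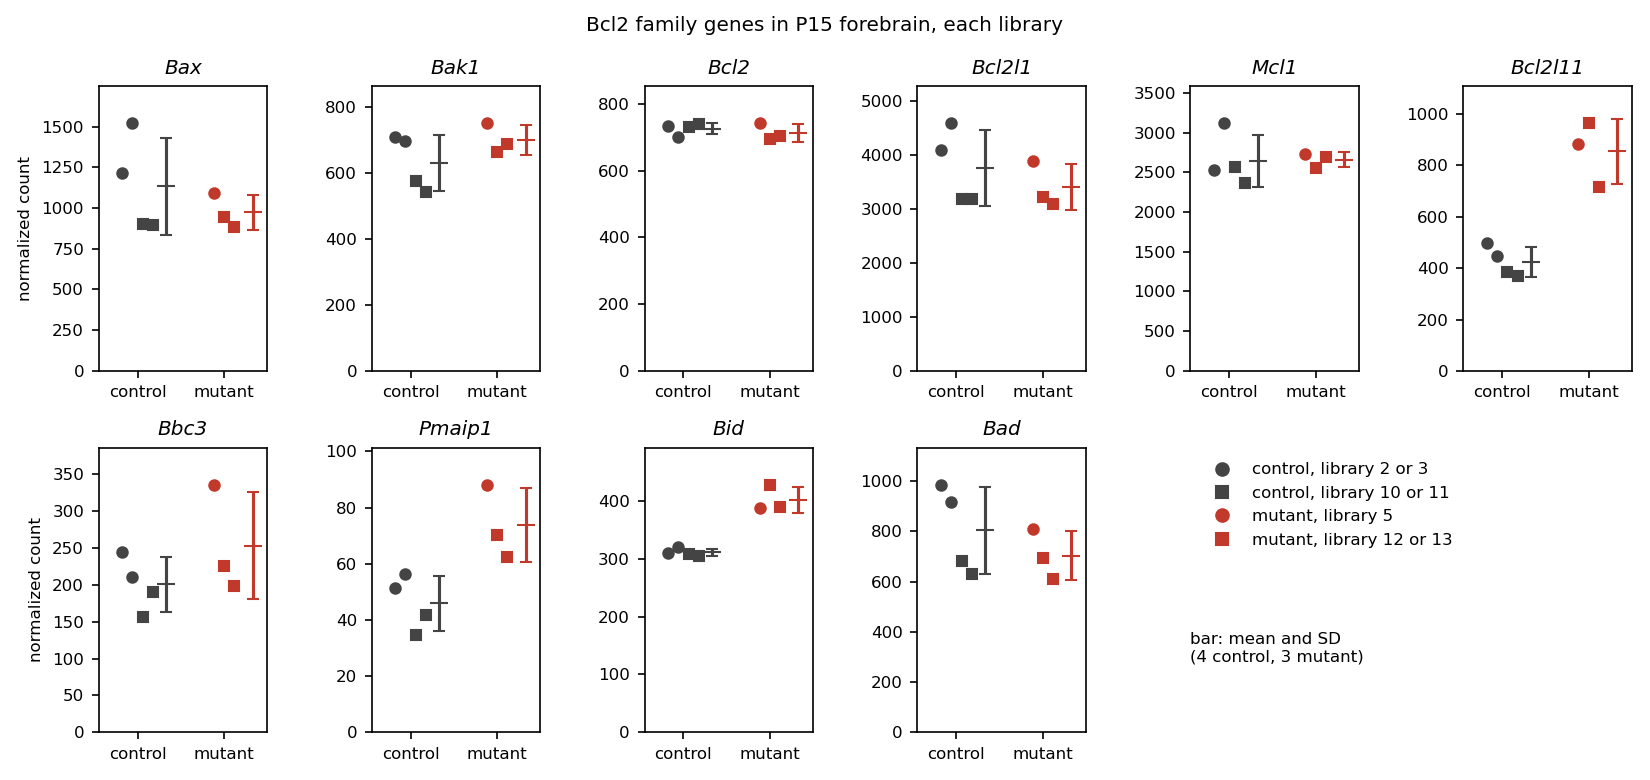
Normalized counts (linear axes from 0) of the 10 Bcl2 family genes in each library, controls in grey and mutants in red; circles are libraries 2, 3 and 5, squares are libraries 10 to 13, and bars give the mean and SD of 4 control and 3 mutant libraries. *Bcl2l11*, *Bid* and *Pmaip1* are higher in every mutant library than in any control library, while *Bax*, *Bak1*, *Bcl2l1* and *Bad* are higher in every circle than in any square.

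*Bcl2l11* (ENSMUSG00000027381) lies at chr2:128126038-128162547 on the plus strand of GRCm38 and encodes Bim, a BH3-only protein that binds all the guardians and can activate Bax directly. Promoter sequence is shown for the member that was called, for *Bid* as the second BH3-only gene with no overlap between genotypes, and for *Bax* as an effector that was not called. *Bcl2l11* has 2 RefSeq starts, and the window of the upstream one is printed. Each sequence is the 250 bases before a RefSeq start (GRCm38.p6), written 5′ to 3′ on the gene's strand, with matches to the searched motifs in capitals.
*Bcl2l11*, chr2:128125788-128126037, plus strand: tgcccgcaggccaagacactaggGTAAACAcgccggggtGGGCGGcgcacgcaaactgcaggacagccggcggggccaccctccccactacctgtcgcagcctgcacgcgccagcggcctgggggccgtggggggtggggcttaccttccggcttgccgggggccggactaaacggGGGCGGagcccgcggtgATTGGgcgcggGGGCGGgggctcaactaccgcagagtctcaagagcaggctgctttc
*Bid*, chr6:120916825-120917074, minus strand: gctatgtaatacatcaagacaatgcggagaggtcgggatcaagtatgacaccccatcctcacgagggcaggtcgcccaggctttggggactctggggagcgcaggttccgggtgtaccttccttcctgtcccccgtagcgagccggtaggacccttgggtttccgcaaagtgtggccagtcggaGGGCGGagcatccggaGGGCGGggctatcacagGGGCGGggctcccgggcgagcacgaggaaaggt
*Bax*, chr7:45466899-45467148, minus strand: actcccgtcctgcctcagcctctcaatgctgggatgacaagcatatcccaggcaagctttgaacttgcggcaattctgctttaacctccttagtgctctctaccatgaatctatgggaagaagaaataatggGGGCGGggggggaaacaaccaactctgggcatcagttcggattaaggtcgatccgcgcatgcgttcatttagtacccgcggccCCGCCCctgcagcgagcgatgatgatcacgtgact

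The motifs were searched on both strands. A forkhead match was the letters GTAAACA, a cAMP response element TGACGTCA, an AP-1 match TGANTCA and a GC box GGGCGG, while a CCAAT box was those letters and a p53 element was a pair of its decamers. The printed *Bcl2l11* window held 1 forkhead match, beginning 227 bases upstream of its start, with 3 GC boxes and 1 CCAAT box, and 72% of its bases were G or C. The window of the second *Bcl2l11* start, chr2:128127325-128127574, held no forkhead match, 2 GC boxes and 2 CCAAT boxes. A forkhead match was not particular to the called gene, since 1 of the 3 start windows of *Bbc3*, which was not called, held 1 as well. A forkhead match was present in 3.17% of 32851 promoter windows of this length, and GC and CCAAT boxes in 32.7% and 33.8%. The *Bid* and *Bax* windows held 3 and 2 GC boxes and none of the other motifs. The cAMP response element, AP-1 and p53 motifs, found in 1.55%, 6.75% and 0.0639% of windows, had no match in any of the 3 printed windows. These matches describe the letters of the windows, and no factor's binding was measured in these samples.

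*Bcl2l11* stood at 497, 449, 385 and 368 normalized counts in the controls, against 884, 965 and 717 in the mutants. The lowest mutant library thus lay above the highest control library, and both genotypes held ample raw counts (362 to 453 per control library and 757 to 932 per mutant library). The log2 fold change was 1.01 (SE 0.145, 95% interval 0.68 to 1.34, adjusted p = 0.00699 from edgeR's quasi-likelihood test). It ranged from 0.90 to 1.17 over 17 other ways of processing the data, and the call was kept in all 16 of these that gave a test. Within libraries 10 to 13 alone it was 1.17, and within libraries 2, 3 and 5, which allow no test, it was 0.90. The difference between the 2 runs of library numbers was 0.22 for this gene, with an adjusted p of 0.251 from edgeR. Of the 36-base words in its transcripts, 0.321% also occurred in another gene, so that few reads of this length could be shared. The transcript isoforms of Bim were summed in the gene count and cannot be told apart here.

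*Bid* (chr6:120891930-120916853, minus strand) encodes the BH3-only protein that caspase-8 cleaves, which links death receptors to mitochondria. The controls stood at 309, 320, 308 and 305 normalized counts, against 387, 428 and 388 in the mutants. Its control values were the most even of the 10 genes relative to their mean, and every mutant library was above them. The log2 fold change was 0.37 (SE 0.098, 95% interval 0.15 to 0.59, unadjusted p = 0.00472, adjusted p = 0.0732 from edgeR), which is not a call. *Bid* was called by DESeq2 (adjusted p = 0.0255), by edgeR once the number run was a covariate (0.0303) and in libraries 10 to 13 alone (0.0438). *Bid* shares 16.8% of its 36-base words with other genes and 17.7% of its exon bases lie opposite exons of *Bcl2l13*, so that its count is less certain where strand was not used, and *Bcl2l13* itself had a log2 fold change of 0.08 (adjusted p = 0.761).

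*Pmaip1* encodes Noxa, which binds Mcl1 above all and was the least abundant member. It stood at 51.5, 56.2, 34.5 and 41.7 normalized counts in the controls, against 88.1, 70.4 and 62.5 in the mutants. The genotypes did not overlap, but the highest control and the lowest mutant library stood close together at 56.2 and 62.5. The log2 fold change was 0.68 (SE 0.231, 95% interval 0.15 to 1.21, unadjusted p = 0.0172, adjusted p = 0.157 from edgeR), and the test was passed in 1 of the alternatives, with the number run as a covariate (log2 fold change 0.76, adjusted p = 0.0277).

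*Bbc3* (chr7:16309616-16318205, plus strand) encodes Puma, the BH3-only protein known best as a target of p53. Its normalized counts were 245, 211, 156 and 190 for the controls and 335, 225 and 199 for the mutants. The genotypes overlapped, and the mutant mean of 253 ± 72.5 rested on library 5: the log2 fold change of 0.34 (SE 0.215, 95% interval -0.15 to 0.83, adjusted p = 0.484 from edgeR) was 0.09 without that library. *Bad* (chr19:6941861-6951898, plus strand) encodes a sensor that growth factor signalling keeps inactive. It stood at 986, 918, 682 and 632 normalized counts in the controls, against 808, 692 and 611 in the mutants, with a log2 fold change of -0.19 (SE 0.177, 95% interval -0.60 to 0.21, adjusted p = 0.655 from edgeR). *Bad* libraries divided by run and not by genotype, and 25.8% of its exon bases lie opposite exons of *Gpr137*.

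In all, 3 of 10 members (*Bcl2l11*, *Bid* and *Pmaip1*) had no overlap between genotypes, beside 19.7% of tested genes (3873). With the number run in the model, edgeR called these same 3 members higher, beside 6.16% of tested genes. Libraries 10 to 13 alone gave 2 calls, *Bcl2l11* and *Bid*, beside 5.36% called higher, and DESeq2 called the same pair beside 5.09%. All 3 are BH3-only genes, while the other BH3-only members, *Bbc3* and *Bad*, had intervals that include 0.

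**Figure D2:**
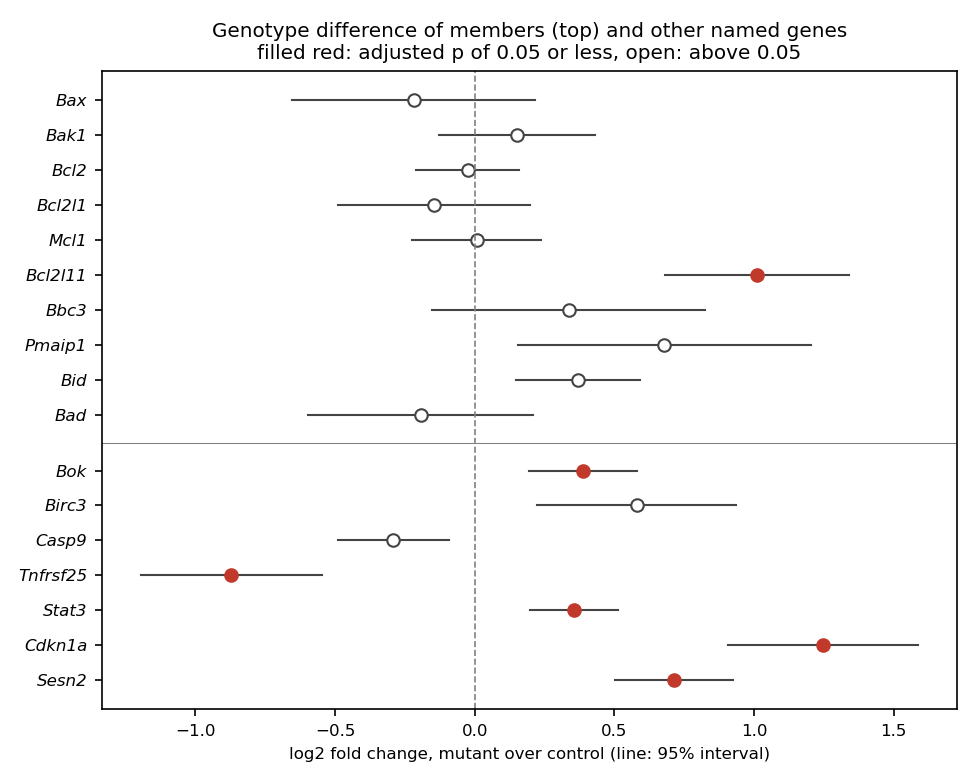
Log2 fold change of mutant over control (points) with its 95% interval (lines) for the 10 Bcl2 family genes, above the grey line, and for a selection of other cell death genes named in the text, below it. Filled points mark an adjusted p of 0.05 or less in edgeR's test. *Bcl2l11* is the filled point among the members at 1.01, and the intervals of *Bid* and *Pmaip1* also lie to the right of 0.

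The guardians differed little between genotypes. *Mcl1* (chr3:95658788-95663176, plus strand), which encodes a short-lived guardian that sequesters Bim and Noxa, stood at 2531, 3118, 2568 and 2362 normalized counts in the controls, against 2731, 2554 and 2686 in the mutants. The mutant values all fell inside the control range, and the log2 fold change was 0.01 (SE 0.101, 95% interval -0.22 to 0.24, adjusted p = 0.984 from edgeR). *Bcl2* (chr1:106538178-106714274, minus strand), the founding member, stood at 733, 701, 731 and 740 normalized counts in the controls, against 742, 694 and 704 in the mutants. The genotypes overlapped, with a log2 fold change of -0.03 (SE 0.081, 95% interval -0.21 to 0.16, adjusted p = 0.916 from edgeR).

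*Bcl2l1* (chr2:152780668-152831728, minus strand) encodes Bcl-xL, the guardian on which mature neurons are known to depend. It stood at 4097, 4592, 3192 and 3178 normalized counts in the controls, against 3886, 3228 and 3096 in the mutants. Values were high in libraries 2, 3 and 5 of both genotypes and low in the others. The genotype difference of -0.15 (SE 0.151, 95% interval -0.49 to 0.20, adjusted p = 0.698 from edgeR) did not pass the test, whereas the run difference was 0.39 (adjusted p = 0.00922 from edgeR).

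The effectors were likewise uncalled. *Bax* (chr7:45461695-45466898, minus strand), the effector that developmental death of neurons requires, stood at 1214, 1521, 901 and 893 normalized counts in the controls, against 1090, 943 and 885 in the mutants. Control libraries 2 and 3 stood above all others, and the remaining 5 libraries lay between 885 and 1090. The log2 fold change was -0.22 (SE 0.191, 95% interval -0.65 to 0.22, adjusted p = 0.634 from edgeR) over all libraries and 0.04 within libraries 10 to 13. *Bak1* (chr17:27019810-27029009, minus strand), which encodes the effector resident on mitochondria, stood at 710, 696, 574 and 542 normalized counts in the controls, against 750, 661 and 687 in the mutants. Its genotypes overlapped, with a log2 fold change of 0.15 (SE 0.123, 95% interval -0.13 to 0.43, adjusted p = 0.604 from edgeR), and 14.8% of its exon bases lie opposite exons of *Ggnbp1*.

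For 4 members, *Bax*, *Bak1*, *Bcl2l1* and *Bad*, libraries 2, 3 and 5 lay above libraries 10 to 13 with no overlap, beside 23.0% of tested genes that separated by run in either direction. The run term of the model was called for *Bax* (0.47 on the log2 scale), *Bcl2l1* (0.39), *Bbc3* (0.51) and *Bad* (0.45), beside 14.7% of tested genes, with adjusted p between 0.00922 and 0.0309 from edgeR. All 4 were higher in libraries 2, 3 and 5. What the numbers mark, and its part in these values, was not tested.

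Levels were compared between genes as CPM (counts relative to the effective library size) per kilobase of annotated exon (the scale of the plot of levels per exon length). *Bax* led at 34.4 (28.6 to 49.1 over the 7 libraries), above the range of every other member. *Bcl2l1* at 22.1 and *Mcl1* at 21.8 overlapped and changed places between libraries. *Bad* (10.7) and *Bak1* (7.70) followed, with overlapping ranges, although *Bad* was above *Bak1* in 7 of 7 libraries. *Bbc3* (3.12), *Bid* (2.76), *Bcl2* (2.21) and *Bcl2l11* (2.13) formed a lower group in which *Bbc3* and *Bid* overlapped, as did *Bcl2* and *Bcl2l11*, and *Pmaip1* was lowest at 0.614. These means pool the genotypes: *Bcl2l11* was below *Bcl2* in all 4 controls (1.48 ± 0.208 against 2.23 ± 0.0528) and above it in all 3 mutants (2.99 ± 0.442 against 2.19 ± 0.0792). The order rests in part on the length used: with the longest transcript in place of all annotated exons, *Bcl2l1* came out at 39.5 and took the highest place from *Bax*. With that length *Bcl2l11* (3.4) also passed *Bcl2* (2.81), and *Bid* (4.06) passed *Bbc3* (3.45).

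**Figure D3:**
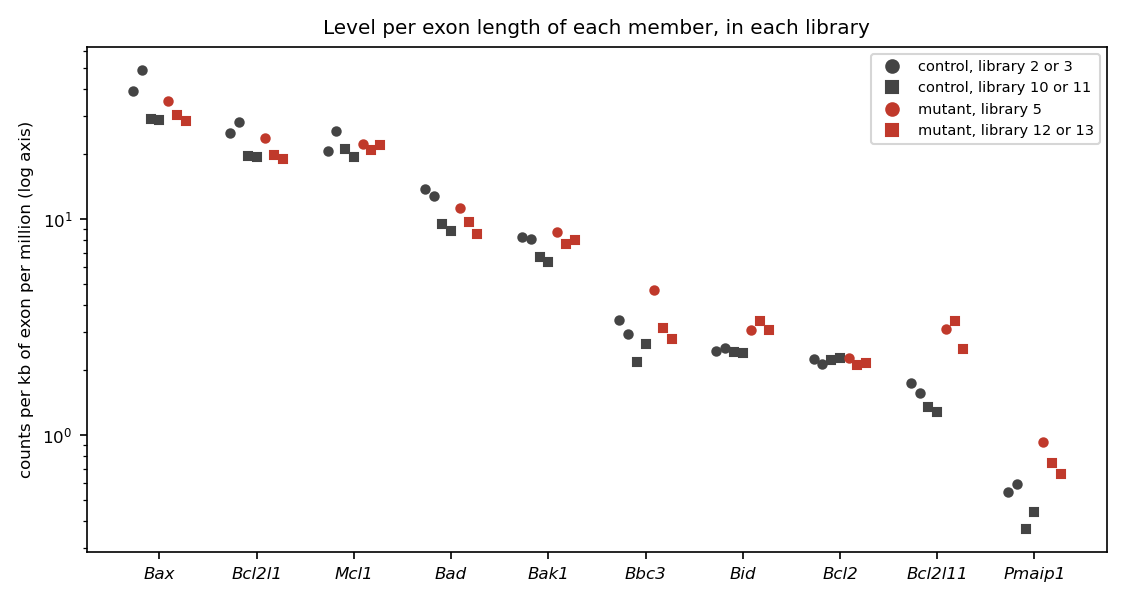
Level of each member in CPM per kilobase of exon (log axis) in each library, ordered by the mean over 7 libraries; controls are grey, mutants red, circles libraries 2, 3 and 5, squares libraries 10 to 13. Levels run from 34.4 for *Bax* to 0.614 for *Pmaip1*, and *Bcl2l11* shows its red points above all its grey points.

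Ratios within a library do not depend on how libraries are scaled. *Bcl2l11* made up 7.92%, 7.66%, 8.47% and 8.23% of the summed level of the 5 BH3-only members in the controls, against 13.4%, 16.6% and 14.3% in the mutants. This sum leaves out other BH3-only genes, so the values are not shares of all BH3-only RNA. Among those left out, *Hrk* had mean normalized counts of 2619 in control and 2113 in mutant libraries (log2 fold change -0.31). *Bmf* had 235 and 272 (0.21), and edgeR called neither. The ratio of *Bcl2l11* to *Mcl1* per kilobase was 0.0836, 0.0613, 0.0638 and 0.0663 in the controls and 0.138, 0.161 and 0.114 in the mutants. Neither quantity overlapped between genotypes. The ratio of *Bax* to *Bcl2* was 17.5, 22.9, 12.99 and 12.7 in controls and 15.5, 14.3 and 13.3 in mutants, and that of *Bax* to *Bcl2l1* lay between 1.48 and 1.75 in controls and between 1.48 and 1.54 in mutants. Both ratios overlapped between genotypes. These ratios describe RNA within a library and carry no test.

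**Figure D4:**
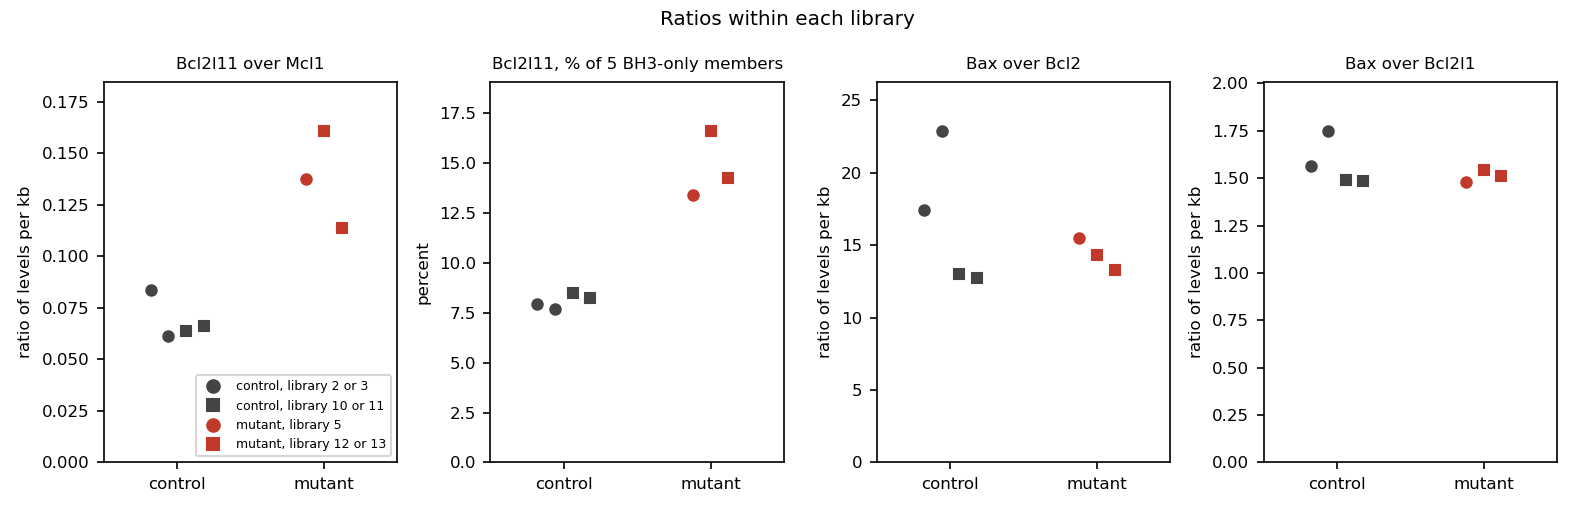
Ratios of levels per kilobase within each library (linear axes from 0): *Bcl2l11* over *Mcl1*, *Bcl2l11* as a percentage of the 5 BH3-only members, *Bax* over *Bcl2* and *Bax* over *Bcl2l1*, with controls in grey, mutants in red, circles for libraries 2, 3 and 5 and squares for libraries 10 to 13. The first 2 panels have no overlap between genotypes (at most 0.0836 against at least 0.114, and at most 8.47% against at least 13.4%), and the last 2 overlap.

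Forebrain is a mixture of cells, and in bulk RNA a change in the number of cells of a type cannot be told apart from a change in RNA per cell. Sums of several marker lists differed between genotypes, as *Bcl2l11* did, although the most abundant genes weigh most in a sum. The calls in each list stand beside 4.85% of all tested genes called in either direction. In edgeR's test 5 of 8 markers of MGE-derived interneurons were lower and 1 higher, and their summed normalized counts were 16162 to 17556 in control and 8694 to 10176 in mutant libraries. Of 10 markers of interneurons of the caudal ganglionic eminence (CGE) 5 were higher, with sums of 17403 to 20631 and 30579 to 33888. *Npy* (means of 2421 in control and 7818 in mutant libraries), which the paper also names as induced by neuronal activity, and *Cnr1* (6257 and 11398) rose most in counts. *Reln*, *Prox1* and *Calb2* were not called (log2 fold changes 0.11, -0.07 and -0.57), so the sum does not stand for every marker. Of the 10 values 8 were positive. Of 8 astrocyte markers *Gfap* was called higher, with sums of 213156 to 307335 and 335259 to 391864. *Slc1a2*, which was not called (adjusted p = 0.200 from edgeR), held most of that sum, with means of 197129 in control and 267793 in mutant libraries. DESeq2 called 3 astrocyte markers. Of the 8 log2 fold changes 7 were positive, from -0.05 for *S100b* to 1.95 for *Gfap*. Of 8 oligodendrocyte markers 3 were lower, with sums of 244713 to 311075 and 176340 to 215206. None of these markers was at 0. The sums of these 4 lists did not overlap between genotypes, and their part in the *Bcl2l11* result was not tested.

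Of 8 markers of neurons of all kinds 1 was lower (sums of 209118 to 220430 in control and 186734 to 199997 in mutant libraries). These sums did not overlap between genotypes either, and 7 of the 8 log2 fold changes were negative. Of 8 markers of cortical excitatory neurons 1 was higher and 1 lower, with overlapping sums (178659 to 231520 and 178424 to 205811). Immature neuron, microglia and endothelium and blood lists, of 8 markers each, had 0 calls by edgeR, with 3, 3 and 4 markers at an unadjusted p under 0.05 and 0, 0 and 2 called by DESeq2 and 0 each by limma-voom. Microglia sums were 14136 to 14219 in control and 11746 to 13667 in mutant libraries, which do not overlap. Immature neuron sums were 26067 to 41686 in control and 24197 to 32882 in mutant libraries, and endothelium and blood sums 12624 to 21239 and 11798 to 16831. The part of these lists in the members' values was not tested either.

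Other members of the Bcl2 family were taken from a list of 15, of which 11 were tested. The 4 left out were *Bcl2a1a* (which has close copies to which its reads could have been assigned) and *Bcl2l14*, both at 0 counts in every library, and *Bcl2l10* and *Bik*, at no more than 3. *Bok*, which encodes an effector related to Bax and Bak1, was the 1 gene called: it stood at 838, 766, 759 and 750 normalized counts in the controls, against 1079, 957 and 1018 in the mutants. Its genotypes did not overlap, with a log2 fold change of 0.39 (SE 0.085, adjusted p = 0.0371 from edgeR). The call was lost without control library 10 (adjusted p = 0.107) or 11 (0.0982), without mutant library 5 (0.128), 12 (0.0904) or 13 (0.161), and with no filter on low counts (0.0579). *Bcl2l2* (Bcl-w), a further guardian, was the other gene without overlap, at 4437 ± 259 normalized counts in control and 3873 ± 106 in mutant libraries. Its log2 fold change was -0.20 (95% interval -0.37 to -0.02, unadjusted p = 0.0316, adjusted p = 0.216 from edgeR), which is not a call. The 1 call in 11 stood beside 4.85% of all tested genes. The median log2 fold change of the 11 genes was 0.08, with 6 positive and 5 negative values.

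Downstream of the pore, 20 genes of the execution machinery (cytochrome c, the apoptosome, caspases and their inhibitors) were all tested. Of these, edgeR called 0, beside 4.85% of all tested genes, and 3 had an unadjusted p under 0.05, beside 18.2%. DESeq2 called 1 and limma-voom 0 of the 20 genes. Their median log2 fold change was -0.02, from -0.29 to 0.58. The smallest p-values were those of *Birc3*, an inhibitor of apoptosis protein, at 57.8 ± 4.13 normalized counts in control and 86.5 ± 2.38 in mutant libraries (log2 fold change 0.58, SE 0.157, adjusted p = 0.0777 from edgeR), and of *Casp9*, the caspase activated on the apoptosome, at 804 ± 49.3 and 657 ± 13.8 (-0.29, SE 0.088, adjusted p = 0.108 from edgeR). Neither overlapped between genotypes and neither passed the test.

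Of 12 death receptor and extrinsic pathway genes, 11 were tested and *Faslg* was not matched to a symbol. Beside 4.85% of all tested genes, edgeR called 1 of the 11. *Tnfrsf25*, a death receptor of the TNF family, was the 1 called by edgeR and was lower in mutants, at 237 ± 31.2 and 129 ± 7.36 normalized counts in control and mutant libraries (log2 fold change -0.87, SE 0.142, adjusted p = 0.0116 from edgeR). Its call was lost without mutant library 12 (adjusted p = 0.0621) or 13 (0.0616). DESeq2 called 2, *Tnfrsf25* and *Tnfrsf1a*, a receptor of TNF that was higher in mutants (log2 fold change 0.40, adjusted p = 0.0431). In edgeR's fit 9 of the 11 values were positive, with a median of 0.17.

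Among 20 regulators of Bcl2 family genes and proteins, edgeR called 1, beside the 4.85% of all tested genes. DESeq2 called 2, beside 1731 of the 19677 genes it tested. *Stat3*, a transcription factor downstream of cytokine receptors, was at 1957 ± 92.8 normalized counts in control and 2502 ± 38.0 in mutant libraries (log2 fold change 0.36, SE 0.069, adjusted p = 0.0238 from edgeR). Its call was lost without control library 10 (adjusted p = 0.0776) or 11 (0.0507) and without mutant library 5 (0.0839), 12 (0.0893) or 13 (0.116). The median of the 20 was 0.02, with 10 positive and 10 negative. *Trp53* and *Foxo3*, which are named here after their values were seen because their proteins are known to act on BH3-only genes, were not called by edgeR: *Trp53* was at 637 ± 21.5 and 670 ± 35.0 (log2 fold change 0.07, adjusted p = 0.743 from edgeR) and *Foxo3* at 3689 ± 404 and 2845 ± 133 (-0.38, adjusted p = 0.0715 from edgeR). *Foxo3* was the second regulator called by DESeq2, lower in mutants (adjusted p = 0.0106). *Jun* had a log2 fold change of 0.32 (unadjusted p = 0.0161, adjusted p = 0.152 from edgeR) and *Foxo1* of 0.23 (adjusted p = 0.421 from edgeR). The JNK genes *Mapk8*, *Mapk9* and *Mapk10* stood at 0.12, -0.07 and -0.18, and edgeR called none of these 5 genes. The part of any regulator in the *Bcl2l11* result was not tested.

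Of 16 p53 target genes outside the family, edgeR called 2, both higher, beside 2.97% of all tested genes called higher. *Cdkn1a*, which encodes the cell cycle inhibitor p21, stood at 767, 981, 703 and 806 normalized counts in the controls, against 2361, 1667 and 1764 in the mutants. Every mutant library was above every control library, and the log2 fold change was 1.25 (SE 0.150, adjusted p = 0.00314 from edgeR). *Sesn2*, a stress-induced regulator of mTORC1, was at 470 ± 20.8 and 771 ± 49.95 (0.71, SE 0.093, adjusted p = 0.00469 from edgeR). The other 14 were not called, and the median of the list was -0.05, with 7 positive and 9 negative values. Both calls were kept in every alternative that gave a test, with adjusted p up to 0.0142 for *Cdkn1a* and 0.0263 for *Sesn2*.

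The genes whose log2 CPM followed those of *Bcl2l11* most closely over the 7 libraries, of 15761 genes with a mean of at least 1 CPM, were *Zdhhc18* (Pearson's r = 0.994), *Cotl1* (0.989), *Marveld1* (0.987), *Anxa4* (0.985) and *Adipor2* (0.985). The 7 points share their libraries and their depth, and 359 genes had r above 0.9, so this is a description of likeness. *Anxa4* and *Cotl1* were also called higher in mutants, at 1.25 and 0.38 on the log2 scale (adjusted p = 0.00225 and 0.0265 from edgeR), while *Zdhhc18*, *Marveld1* and *Adipor2* were not called, at 0.20, 0.25 and 0.19. *Bcl2l11* lies on the chromosome of *Lhx6*, 92.0 Mb from it. Of 36 tested genes within 1 Mb of *Bcl2l11*, 2 were called higher and 1 lower, beside 2.97% and 1.87% of all tested genes. The median log2 fold change of the 36 genes was 0.02.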

How the data were processed

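Forebrain RNA libraries (TruSeq, 36 bp single-end reads) were made from 4 control and 3 mutant pools of 2 animals. The authors trimmed reads with cutadapt 1.9.1, aligned them with Bowtie2 2.2.9 to the Ensembl release 84 transcriptome (GRCm38) and deposited RSEM 1.2.31 expected counts per gene, which share reads matching several genes and were not normalized. Strand use is not given in the sources used here. The deposited DESeq2 table holds the authors' own comparison: only its gene symbols were used. Gene positions came from the deposited exon annotation. All per-sample columns were used (0 left out).

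Expected counts were rounded. Libraries were grouped by the genotype in the column names; these carry no replicate number, sex or RNA quality. Genes reaching 10 counts in 3 or more libraries were scaled by TMM and tested with edgeR 4.0.16 (R 4.3.3), quasi-likelihood F-test, genotype only, Benjamini-Hochberg adjustment, threshold 0.05. The standard error is the absolute log2 fold change over the root of F. Normalized counts are counts relative to the effective library size, times its mean. A count of 0 allows 3 counts, at most 0.0921 CPM, for counting error only. Same-genotype libraries differed by more than sampling noise (chi-square per degree of freedom 9.96 to 70.8). Alternatives were DESeq2 1.42.0, limma-voom 3.58.1, other normalizations, filters, unrounded counts, the run of library numbers, and each library left out. Members, lists and tests were chosen with earlier results of these data known. All members were named; of the other pathway lists, genes called by edgeR or, with none, the 2 with the smallest p; cell type markers were given as list sums; and the 5 genes most alike *Bcl2l11*. *Trp53*, *Foxo3*, *Tnfrsf1a* and *Gfap* were named after their values were seen. So were *Hrk*, *Bmf*, *Bcl2l2*, *Jun*, *Foxo1*, *Mapk8*, *Mapk9* and *Mapk10*, and the markers *Npy*, *Cnr1*, *Reln*, *Prox1*, *Calb2*, *Slc1a2* and *S100b*.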

Additional observations from a re-analysis of the deposited data

How the results depend on the processing

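The number of genes called between genotypes was 954. It was 2205 with the number run as a covariate, 1858 in libraries 10 to 13 alone and 1731 with DESeq2, and between 302 and 971 with each library left out in turn; it moved by more than 1.5 times without control library 10 (513) or 11 (589) and without mutant library 5 (458), 12 (387) or 13 (302). Other normalizations, filters, unrounded counts and limma-voom kept it within 1.5 times. Of the 10 members, 1 was called, against 3 with the covariate, 2 in libraries 10 to 13 and 2 with DESeq2, and 1 in every other alternative, each library left out included. The log2 fold change of *Bcl2l11* stayed between 0.90 and 1.17 with adjusted p between 2.22e-08 and 0.0378. Values near 0 changed sign: *Bax* to 0.04 in libraries 10 to 13, *Bcl2* to 0.051 and *Mcl1* to -0.049 in libraries 2, 3 and 5, and *Mcl1* to between -0.044 and 0.096 with each library left out. *Birc3* passed the test with the covariate (adjusted p = 0.0493), and *Casp9* with the covariate (0.0473) and DESeq2 (0.0350). The cause of these changes was not tested. With libraries 10 to 13 alone, 2 libraries remain in each genotype. Levels of the scarcest member, *Pmaip1*, rest on 36 to 92 counts per library. No paired analysis was possible because the columns of the count table carry library numbers and no replicate number.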
